A study of Rattus norvegicus with 4 samples.

Results

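The aminoacyl-tRNA synthetase genes join each amino acid to its transfer RNA (tRNA), the step that precedes every round of protein synthesis. Members were taken by gene symbol: a letter for the amino acid followed by "ars", with or without a 1 or 2, together with Eprs, Farsa, Farsb, Aimp1 and Aimp2. This rule found 39 of the 30708 symbols listed for each library. Of these, 18 encode enzymes of the cytosol, 17 encode enzymes of mitochondria, 2 (Gars and Kars) supply both compartments, and 2 (Aimp1 and Aimp2) encode scaffold proteins without a charging activity.

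The values come from S16 cells, an immortalized line of rat Schwann cells, the myelin-forming glia of peripheral nerve. Unmodified cells without any treatment were measured by RNA-Seq of poly(A) RNA at passage 9, the age of the parental cells of deletion clones made in the same study, and at passage 39. Each passage was 1 population of cells grown in medium with added L-glutamine, and each had 2 libraries that the labels call technical replicates, here the first and the second library. There was therefore no separate culture of either passage, no replicate check of a difference between passages, and no p-value was computed.

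In general, the cytosolic enzymes charge tRNAs for the proteins encoded in the nucleus, whereas the mitochondrial enzymes, also encoded in the nucleus, are imported to charge the tRNAs of the mitochondrial genome. Part of the cytosolic set is held in a multisynthetase complex around Eprs and the scaffold proteins. When amino acids run short or the endoplasmic reticulum is stressed, uncharged tRNA or unfolded protein leads to translation of the transcription factor ATF4, which is known to induce many cytosolic synthetases together with genes of amino acid synthesis and transport. Variants of several cytosolic synthetases cause Charcot-Marie-Tooth disease, an inherited disease of peripheral nerve: dominant forms are known for the human counterparts of Aars, Gars, Hars, Mars, Wars and Yars, and a recessive form for that of Kars.

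ATF4 acts with C/EBP partners through a composite element, and its core TGATGCAA was searched for on both strands in the promoters of the synthetase genes, taken from 250 bases before to 50 bases after the start of each gene (RefSeq, assembly GRCr8). Of the 39 members, 35 had a promoter in the table, and Dars, Gars and Rars were among the 4 that had none. The core was present in 7 of these 35, against 227 of 27457 genes (0.827%). All 7 were cytosolic enzymes, among them Cars, Iars, Mars, Nars, Tars and Yars. They made up 7 of the 12 matched enzymes on a list of synthetases linked to ATF4, and the core was in 0 of the 5 other matched cytosolic or shared enzymes, 0 of 16 mitochondrial enzymes and 0 of 2 scaffold genes. A match of letters is a description and does not show binding. The windows below are shown because the same letters recur in them close to the start of genes on different chromosomes. They are printed 5′ to 3′ along the gene, with the core in capitals (TGATGCAA, or TTGCATCA where it lies on the opposite strand).
Tars1 (chr2:62114811-62114840, minus strand): ctggcgtcccgTTGCATCAgctggttagct
Iars1 (chr17:15193658-15193687, minus strand): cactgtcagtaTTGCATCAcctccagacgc
Mars1 (chr7:65023752-65023781, minus strand): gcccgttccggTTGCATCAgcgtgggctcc
Cars1 (chr1:208225334-208225363, minus strand): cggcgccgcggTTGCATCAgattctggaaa
Yars1 (chr5:146820190-146820212, plus strand): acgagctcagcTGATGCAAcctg

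Counted from the start of the gene, the core began at position -27 in Tars, -24 in Iars, -17 in Mars and -14 in Nars, and at position 18 in Cars and 39 in Yars. In 5 of the 7 genes it lay on the opposite strand, while Nars and Yars carried it on the gene's own strand. A looser form, TGATGNAA, which takes in every match of the core, was found in the same 7 members and in 4.16% of all genes.

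**Figure D1:**
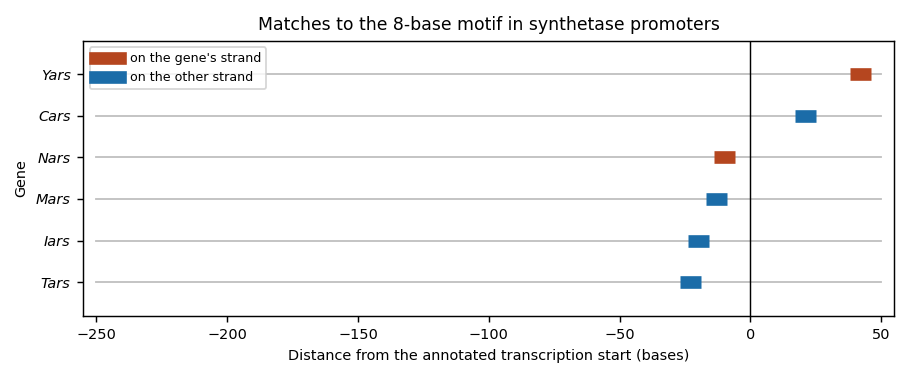
Position of each match to the core TGATGCAA in the promoters of 6 genes that carry it, as distance in bases from the annotated start of the gene (0), with grey lines for the window searched and colour for the strand. In 4 genes the match lies before the start, from -27 in Tars to -14 in Nars, and in Cars and Yars it lies after it.

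Deposited values were RPKM, in which reads are divided by gene length and by the total of the library, so that levels can be compared between genes. The totals recovered from them ranged from 34246093 to 41382234 reads. The 4 libraries paired by number and not by passage: over the 11025 genes averaging 1 RPKM or more, the SD of the difference in log2(RPKM + 1) was 0.339 and 0.334 between the libraries of 1 passage, and 0.0796 and 0.0823 between libraries of the same number at different passages. The study's methods state that technical replicates were pooled and spread over a pair of sequencing lanes. Neither they nor the labels say whether a library number stands for a lane, a library preparation or something else. All 10 Schwann markers were above 1 RPKM, among them Sox10 and Pmp22 at means of 176 and 1255 RPKM. Of 6 neuronal markers 0 reached 1 RPKM, and Syt1 and Elavl4 were listed at 0. Of 6 fibroblast markers Col1a1 and Pdgfra reached it, and Thy1 was listed at 0, with Dcn at 0.00330 RPKM. Of 5 melanocyte markers Pmel and Mitf did so, and Tyr was listed at 0. Each comparison by number is given below within each passage, and each by passage within each number. Where 4 values of a gene are given, passage 9 comes before passage 39 within each library number.

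Cytosolic synthetases were expressed about an order of magnitude above their mitochondrial counterparts. The 18 cytosolic genes had a median of 47.7 and 58.6 RPKM in the first and second library of passage 9 and of 48.0 and 58.9 RPKM in those of passage 39. The 17 mitochondrial genes had medians of 3.96, 4.63, 3.70 and 4.70 RPKM in the same order. Over members with a mean of at least 1 RPKM, the ratio of the medians of the gene means was 10.5. All 39 genes together took between 0.377% and 0.479% of the reads of a library, with exact 95% intervals from 0.375-0.378% to 0.477-0.481%. The mitochondrial genes took between 0.0247% (0.0242-0.0252%) and 0.0301% (0.0296-0.0307%).

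**Figure D2:**
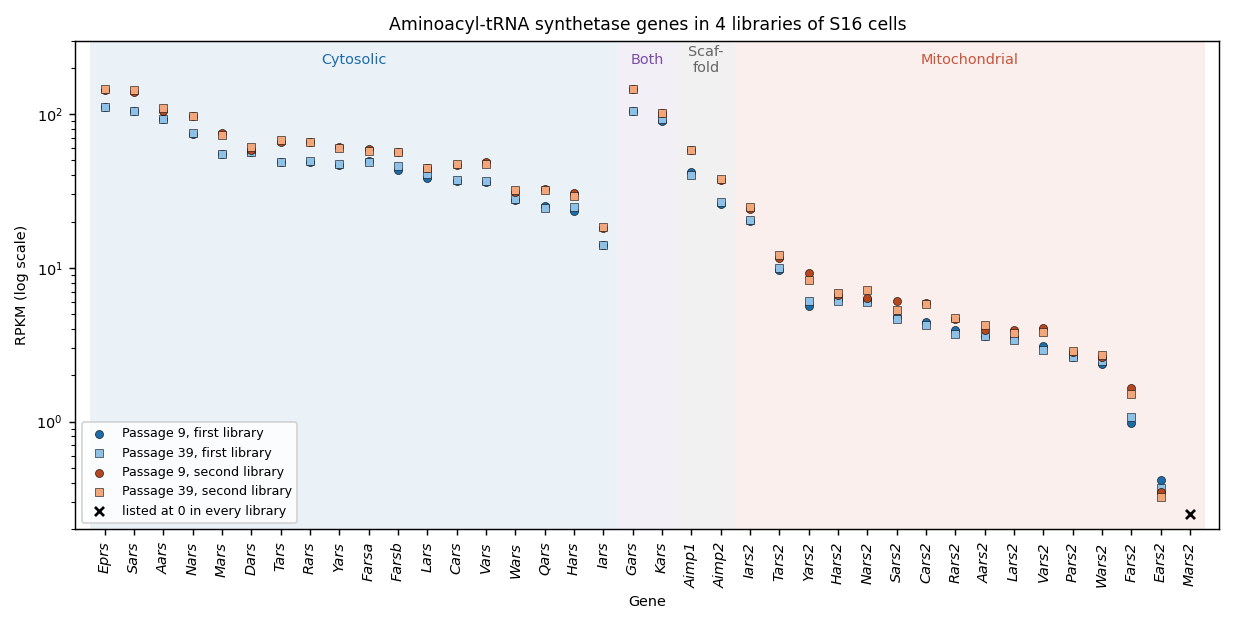
RPKM (log scale) of 38 of the 39 genes in the 4 libraries, grouped by compartment and ordered by mean within each group. Cytosolic genes had means from 16.2 to 128 RPKM and mitochondrial genes from 0 to 22.4 RPKM, and circles and squares of 1 library number (blue for first, red for second) lie close together.

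The highest mean belonged to Eprs, the fused enzyme that charges both glutamate and proline tRNAs and anchors the multisynthetase complex. Eprs stood at 112 and 111 RPKM in the first and 144 and 145 RPKM in the second libraries. Gars, the glycyl enzyme, had nearly the same mean (125 against 128 RPKM). Eprs was above Gars in both first libraries and below it in both second libraries, so their order was not resolved. The seryl enzyme Sars was below both in every library, by small margins. Sars measured 105 and 105 RPKM in the first and 139.9 and 143 RPKM in the second libraries. Aars and Kars, which charge alanine and lysine, completed the leading 5 with means of 99.99 and 96.8 RPKM. Aars was above Kars in every library except the first library of passage 39.

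The lowest cytosolic mean was that of Iars, the isoleucyl enzyme, at 16.2 RPKM (14.2 and 14.1 RPKM in the first and 18.1 and 18.4 RPKM in the second libraries). Iars was lower than the mitochondrial Iars2 in every library. Farsa and Farsb encode the subunits of the cytosolic phenylalanyl enzyme, which pair to form the active protein. Their ratio was 1.13 and 1.04 in the libraries of passage 9 and 1.06 and 1.02 in those of passage 39. The subunit genes thus stood at nearly equal levels in all 4 libraries.

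At the low end, all 5 genes were mitochondrial. Mars2, the mitochondrial methionyl enzyme, was listed at 0 in every library, and a listed 0 can be a failed estimate. Ears2, which charges mitochondrial tRNAs with glutamate, was at 0.418 and 0.372 RPKM in the first and 0.348 and 0.322 RPKM in the second libraries. Fars2, the single-chain mitochondrial phenylalanyl enzyme, followed at 0.974 and 1.07 RPKM in the first and 1.64 and 1.52 RPKM in the second libraries. Wars2 (tryptophan) and Pars2 (proline) had means of 2.54 and 2.75 RPKM. Wars2 measured 2.37 and 2.48 RPKM in the first and 2.62 and 2.70 RPKM in the second libraries, and Pars2 measured 2.63 and 2.65 RPKM in the first and 2.82 and 2.89 RPKM in the second libraries. Except for Ears2 and Mars2, every member reached a mean of 1 RPKM, and these 37 entered the comparisons below.

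For 13 amino acids a cytosolic gene and a separate mitochondrial gene could be paired by name, both with a mean of at least 1 RPKM. The cytosolic gene was higher in all 4 libraries in 12 of the 13 pairs, and the median ratio of means was 11.6. Among these 13 pairs the widest gap was that of Aars over Aars2. It stood at 26.0 and 26.5 in the libraries of passage 9 and 25.6 and 25.5 in those of passage 39. The exception was Iars over Iars2, at 0.701 and 0.754 and at 0.689 and 0.744. Some genes that did not pair by name were wider apart. Mean ratios were 46.5 for Eprs over Pars2, and 41.3 and 38.9 for Farsa and Farsb over Fars2. Hars and Hars2, whose cytosolic and mitochondrial enzymes both charge histidine, had the next lowest ratio of the 13 pairs, 4.20. Their promoter windows in GRCr8 share 243 bases on opposite strands. In GRCr8 neither Hars nor Hars2 overlaps another protein-coding gene, and the build of the files was not examined.

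**Figure D3:**
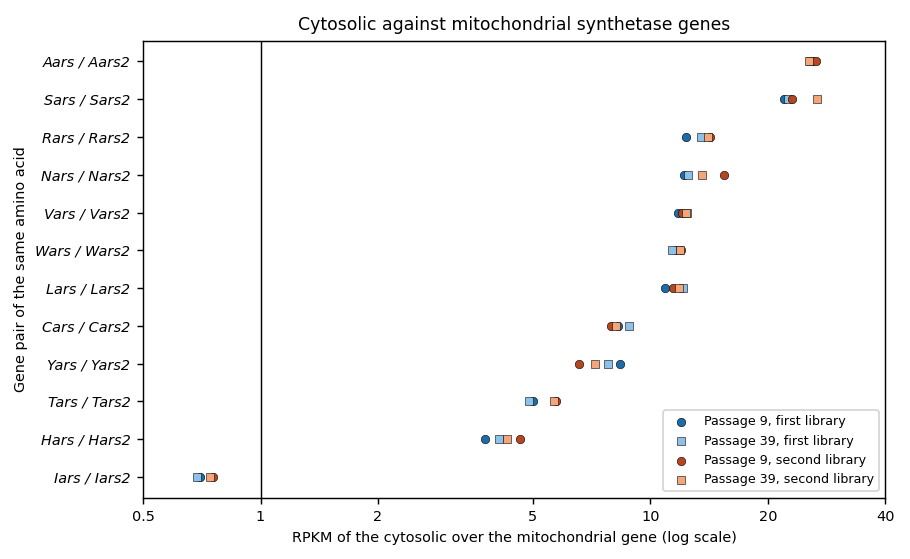
RPKM ratio of the cytosolic gene to its mitochondrial counterpart (log scale) for 12 of the 13 pairs in each of the 4 libraries. All points lie above 1 except those of Iars over Iars2, between 0.689 and 0.754, and the highest mean ratio is 25.9 for Aars over Aars2.

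The libraries were next compared by number. All 37 genes above the minimum were higher in both second libraries than in both first libraries, against 57.2% of all 11025 genes. Ears2, below it, was lower in the second libraries, with a difference in log2(RPKM + 1) of -0.063. It had only 24 to 34 reads per library. The exact 95% interval of its ratio of second to first library included 1 at passage 9 (0.472-1.45) and at passage 39 (0.481-1.57). A gene was counted as higher when, in addition, the group means of log2(RPKM + 1) differed by at least 25% on the linear scale. This held for 18 of the 37 genes, against 19.3% of all genes. Lower by the same rule were 0 of 37, against 10.1% of all genes, and 0 of 37 differed by at least 2-fold, against 1.09%. On this scale, on which folds of weakly expressed genes come out too small, the median difference of the members was 0.31 and that of all genes 0.10. Of the 37 members, 34 lay above the median of all genes and 21 above their upper quartile of 0.27. The exact 95% interval of the ratio of reads, which covers counting error between libraries only, lay above 1 at both passages for 29 members, against 41.6% of genes.

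This count depended on how the libraries were scaled. The RPKM of the first libraries summed to 315847 and 315995, and those of the second libraries to 351061 and 348537. With libraries scaled to a common sum the median of all genes shifted by -0.13, and with scaling by the median ratio by -0.08. Counted as higher were then 3 members (against 7.60% of genes) and 8 members (against 11.3%), respectively. Across all genes the split of higher against lower moved from 19.3% and 10.1% to 7.60% and 17.4% with the common sum, and to 11.3% and 14% with the median ratio. Aimp1, Aimp2 and Yars2 were counted under each of the 3 scalings. They were also the shortest of the 38 members with a recovered length, at 1053, 1165 and 1564 bp. Relative to genes of similar length none of the 3 was counted, at 0.27, 0.26 and 0.31, and the members counted were Eprs, Fars2, Gars, Iars, Tars and Vars (6.43% of all genes were higher). Dars turned to lower under both alternatives, and Hars2, Pars2 and Wars2 did so with the common sum.

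**Figure D4:**
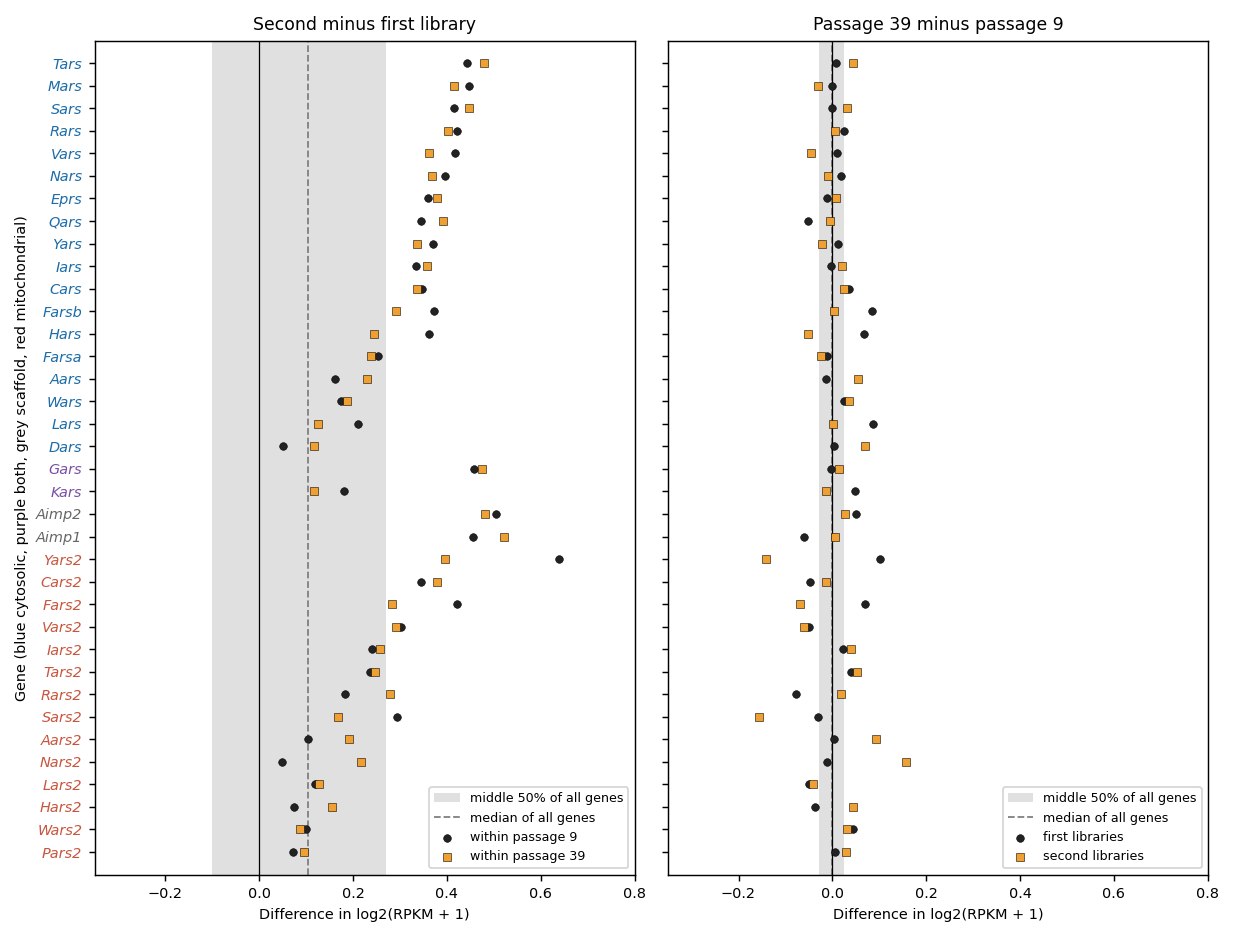
Difference in log2(RPKM + 1) of 36 of the 37 genes by library number and by passage, with the values within each passage or number as separate points. By number the means of the paired points run from 0.083 for Pars2 to 0.52 for Yars2, and by passage from -0.094 for Sars2 to 0.073 for Nars2.

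By compartment, 12 of 18 cytosolic genes, 1 of 2 shared genes (Gars), 2 of 2 scaffold genes and 3 of 15 mitochondrial genes (Cars2, Fars2 and Yars2) were counted as higher. Over all genes the share was 19.3%, and the mitochondrial count was near it. The cytosolic median was 0.35 (0.36 at passage 9 and 0.35 at passage 39) and the mitochondrial median 0.23 (0.24 and 0.25). The gap between these medians moved with level: relative to genes of similar RPKM, an alternative chosen after seeing the data, they were 0.19 and 0.16. Relative to genes of similar length they were 0.24 and 0.094. Within the cytosolic and shared enzymes, the list linked to ATF4 had a median of 0.35 with 9 of 13 counted, and the others 0.33 with 4 of 7. The 7 carriers of the promoter core shown above had a median of 0.35 (range 0.20 to 0.46), and the 10 matched cytosolic and shared enzymes without it 0.32 (0.15 to 0.43). The ranges overlapped over most of their width, so carriers were not set apart by their difference.

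Without regard to length, the largest difference was that of Yars2, the mitochondrial tyrosyl enzyme. Relative to genes of similar length, Yars2 (0.31) lay below Eprs (0.42), Iars (0.40) and Vars (0.38). Yars2 stood at 5.61 and 6.09 RPKM in the first and 9.29 and 8.33 RPKM in the second libraries, a difference of 0.52 (0.64 and 0.40 within the passages). The groups did not overlap, although the difference at passage 9 was the larger. The next by the unadjusted difference were the scaffold genes. Aimp2, which bridges parts of the complex, stood at 25.9 and 26.9 RPKM in the first and 37.2 and 37.9 RPKM in the second libraries, a difference of 0.49. Aimp1, also known as the precursor of a secreted cytokine, stood at 42.1 and 40.3 RPKM in the first and 58.1 and 58.3 RPKM in the second libraries, likewise 0.49. Both scaffold genes were thus higher in each second library by similar steps. The complex as a whole, with 8 enzymes beside them, had 7 of 10 genes counted and a median of 0.37. Both scaffold genes were among those 7. The cytosolic and shared enzymes outside the complex, a set without scaffold genes, had 8 of 12 counted and a median of 0.35. Over all genes 19.3% were counted. Tars, the threonyl enzyme, stood at 48.5 and 48.8 RPKM in the first and 66.3 and 68.3 RPKM in the second libraries, a difference of 0.46.

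Among the 5 smallest differences, 4 were mitochondrial. Besides Pars2 (0.083) and Wars2 (0.094), given above, these were Lars2, the leucyl enzyme, and Hars2. Lars2 stood at 3.53 and 3.38 RPKM in the first and 3.92 and 3.78 RPKM in the second libraries, a difference of 0.12. Hars2 stood at 6.25 and 6.06 RPKM in the first and 6.63 and 6.86 RPKM in the second libraries, a difference of 0.11. The cytosolic one was Dars, which charges aspartate and sits in the complex. Dars measured 56.3 and 56.5 RPKM in the first and 58.4 and 61.3 RPKM in the second libraries, a difference of 0.084, and its direction depended on the scaling as stated above.

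The 7 genes linked to neuropathy were all among the expressed cytosolic or shared enzymes, with means from 27.1 to 125 RPKM. By number, 3 of the 7 (Gars, Mars and Yars) were counted as higher, against 19.3% of all genes, and the median difference of the 7 was 0.30. Of the 13 other cytosolic and shared enzymes 10 were counted, with a median of 0.37. With the median ratio Gars and Mars were still counted, beside Rars, Sars and Tars of the others. With the common sum no gene of either group was counted. Gars stood at 105 and 105 RPKM in the first and 145 and 146 RPKM in the second libraries, a difference of 0.47. Its ratio of second to first library was 1.38 (exact 95% interval 1.34-1.41) at passage 9 and 1.39 (1.36-1.43) at passage 39. The step in Gars was therefore nearly the same at both passages. Mars, the methionyl enzyme, stood at 54.8 and 54.8 RPKM in the first and 75.1 and 73.5 RPKM in the second libraries, a difference of 0.43. In GRCr8 Mars overlaps Ddit3, a target of ATF4 that was itself higher in the second libraries by 0.85. Reads from the shared stretch cannot be assigned to either gene without strand. The study's methods name default HTSeq settings with strand off, and any effect of this stretch on the value of Mars was not tested. Yars, the cytosolic tyrosyl enzyme, stood at 46.9 and 47.3 RPKM in the first and 60.9 and 59.9 RPKM in the second libraries, a difference of 0.35.

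The other 4 were not counted by the 25% rule. Hars stood at 23.6 and 24.8 RPKM in the first and 30.6 and 29.5 RPKM in the second libraries, a difference of 0.30. Aars measured 93.6 and 92.7 RPKM in the first and 105 and 109 RPKM in the second libraries, a difference of 0.20. The tryptophanyl enzyme Wars, which interferon is known to induce, measured 27.7 and 28.1 RPKM in the first and 31.4 and 32.2 RPKM in the second libraries, a difference of 0.18. Kars, which supplies the cytosol, the complex and mitochondria from 1 gene, measured 90.2 and 93.4 RPKM in the first and 102 and 101 RPKM in the second libraries, a difference of 0.15. For each of these 4 genes both second libraries lay above both first libraries, with group means less than 25% apart. Relative to genes of similar RPKM or similar length Kars turned to lower, and so did Dars. Relative to similar length the mitochondrial Lars2, Nars2 and Pars2 also turned to lower.

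Passages were compared within library numbers, since genes whose libraries separate by number cannot separate by passage. By a rule chosen after seeing the data, a gene was counted when passage 39 differed from passage 9 in the same direction within both numbers and by at least 25% on average. This held for 0 of the 37 genes, against 0.0998% of all genes. The median difference, passage 39 minus passage 9, was 0.0084 for the members and -0.0018 for all genes. The members ran from -0.094 to 0.073. At any size, 13 of the 37 members were higher at passage 39 within both numbers (24.7% of all genes), 7 were lower within both (26.6%), and 17 differed in direction between first and second libraries (48.7%).

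The largest differences by passage were small and belonged to mitochondrial enzymes with few reads. Nars2 (asparagine) had 6.09 and 6.03 RPKM in the first and 6.33 and 7.18 RPKM in the second libraries, a difference of 0.073 (-0.011 in first and 0.16 in second libraries). Sars2 (serine) had 4.76 and 4.63 RPKM in the first and 6.06 and 5.33 RPKM in the second libraries, a difference of -0.094 (-0.031 and -0.16). In Nars2 the direction differed between the numbers, whereas Sars2 was lower at passage 39 in both. Judged by counting error alone, the 95% interval of the ratio excluded 1 for 3 members in the first libraries (Farsb, Kars and Lars, higher at passage 39), against 6.25% of genes. In the second libraries it did so for 3 members (Aars and Dars higher, Vars lower), against 8.86%. No gene was on both lists, which says little with 3 members on each.

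Genes of the amino acid response outside the synthetases were higher in the second libraries as well. Over all genes, 19.3% were counted as higher and 10.1% as lower by the same rule. A list of 28 such genes came from general knowledge and was chosen with earlier results of these data known. Of these, 24 reached 1 RPKM. Among the 24, 17 were counted as higher, 1 as lower (Vldlr) and 6 as neither, with a median of 0.50. The largest differences were those of Trib3, a pseudokinase that restrains ATF4, and Atf5, a related transcription factor. Trib3 stood at 3.78 and 2.96 RPKM in the first and 12.3 and 10.9 RPKM in the second libraries, a difference of 1.53. Atf5 stood at 66.2 and 63.5 RPKM in the first and 157 and 155 RPKM in the second libraries, a difference of 1.253. Ddit3, the stress factor CHOP, followed with 0.85. With the common sum of RPKM, under which 7.60% of all genes were higher and 17.4% lower, 13 of the 24 genes were still counted as higher and 1 as lower, and with the median ratio 14 and 1. The synthetases linked to ATF4 had a lower median than these genes, 0.35 against 0.50. Their range, 0.17 to 0.47, lay inside that of these genes, -0.45 to 1.53. The 10 Schwann markers moved the other way on balance: 6 were counted as lower and 1 (Egr2) as higher under each of the 3 scalings, with a median of -0.41 without rescaling, and the summed RPKM of the list was 4699 and 4696 in the first and 3847 and 3797 in the second libraries. Among those counted as lower were S100b, with a difference of -1.39, and Mbp, with -0.76. The part of these marker genes in the differences of the synthetases was not tested. The totals did not order by number, at 41382234 and 34246093 reads in the first and 35092464 and 41083270 reads in the second libraries.

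**Figure D5:**
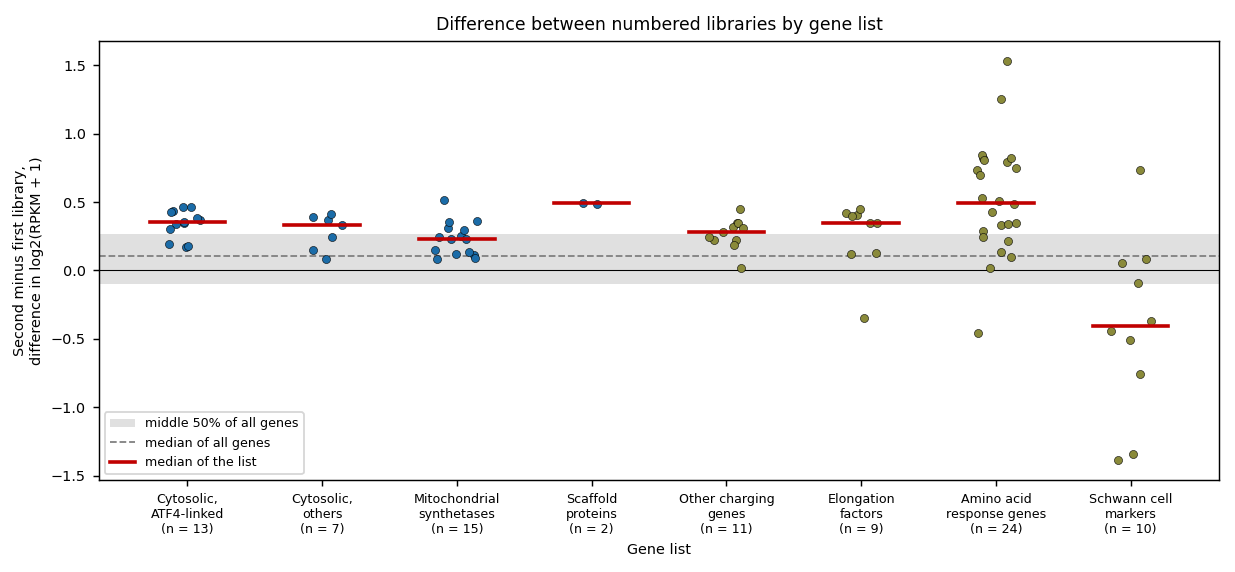
Difference in log2(RPKM + 1) between second and first libraries for each gene of 8 lists, with the median of each list (red) and the median (dashed) and middle 50% (grey) of all 11025 genes. Medians were 0.35 and 0.33 for cytosolic and shared enzymes on and off the ATF4 list, 0.23 for mitochondrial enzymes, 0.50 for amino acid response genes and -0.41 for Schwann markers.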

How the data were processed

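RPKM values of 4 poly(A) RNA-Seq libraries were analysed as deposited by the authors, 1 value per gene symbol. Per the study's methods, single-end reads were aligned to rn5 (Rnor_5.0) with STAR, and uniquely mapped reads were counted with HTSeq without regard to strand; FastQC is also named in the submitters' processing notes. The gene lengths and the total of each library behind the RPKM are not given in the sources used here. The library totals, and the whole reads of each gene, were worked back from ratios of the RPKM values for 18108 of the 18114 genes above 0 in at least 2 libraries, and the recovery was tested on simulated data. The recovered totals lie above the read depth that the study's methods state per cell line, a difference that was not resolved. Were the true totals lower, the counting intervals would be wider than printed.

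Differences were taken on log2(RPKM + 1), a pseudocount of 1 RPKM, over the 11025 genes averaging 1 RPKM or more. A gene was called when both libraries of a group lay above both of the other and the means differed by at least 25% on the linear scale. Intervals are exact (Clopper-Pearson for shares, conditional for ratios) at 95% and reflect counting error alone: without molecular identifiers, PCR copies are counted as separate reads. At these depths 3 reads of a gene of 1 kilobase correspond to 0.0725 to 0.0876 RPKM. With 1 population per passage no test was run.

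Members and gene lists were chosen with earlier results of these data known, and the lists came from general knowledge. The rule for named members took those linked to neuropathy, the scaffold genes, the 5 highest and 5 lowest means, the 5 largest and 5 smallest (or most negative) differences by number and the largest difference by passage in each direction, and for other lists the 3 that moved most. Cars, Cars2, Iars, Iars2, Farsa, Farsb, Lars, Nars, Vars, Aars2, Egr2, Vldlr and the cell type markers given by level were named outside it, after their values were seen. Some genes and 1 promoter sequence that the rule would name are not reported here. Alternatives were 2 other scalings, a pseudocount of 0.1 RPKM, a minimum of 5 RPKM or none, differences relative to genes of similar length or level, a 2-fold threshold, Gars and Kars counted as cytosolic, library number as a block for the passages, and leaving out each library. Promoters came from RefSeq (GRCr8), not the build of the files, and were used for letters only. Python 3.11.15, numpy 2.4.6, pandas 2.3.3, scipy 1.17.1 and matplotlib 3.10.9 were used.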

Additional observations from a re-analysis of the deposited data

How the results depend on the processing

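The number of members apart by library number (18) was 8 with median-ratio scaling, 3 with a common sum of RPKM, 6 relative to genes of similar length, 4 relative to genes of similar RPKM (chosen after seeing the data), 0 with a 2-fold threshold, and 17 to 20 without 1 library. In the same order of the first 4 settings, the cytosolic median of 0.35 was 0.26, 0.21, 0.24 and 0.19, the mitochondrial median of 0.23 was 0.16, 0.11, 0.094 and 0.16, and the median of the synthetases linked to ATF4 (0.35) was 0.26, 0.21, 0.27 and 0.19. With a pseudocount of 0.1 RPKM these medians were 0.36, 0.26 and 0.37, and the mitochondrial median was 0.245 with a minimum of 5 RPKM. Without 1 library they ranged from 0.35 to 0.36, 0.21 to 0.24 and 0.35 to 0.36, respectively. All these medians stayed above 0.

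Members apart by library number cannot be apart by passage with all 4 libraries, so a count of 0 says nothing about stability there. Without 1 library this count was 0 to 1, with Yars2 lower at passage 39 when the first library of passage 9 was left out. With the library number as a replicate block, an alternative chosen after seeing the data, 0 of 37 members were apart by passage. The median by passage of 0.0084 was 0.012 with median-ratio scaling, 0.013 with the common sum, 0.0087 with the pseudocount of 0.1, 0.012 with the minimum of 5 RPKM, 0.0076 with no minimum and 0.012 relative to genes of similar length. It ranged from -0.16 to 0.16 without 1 library: -0.16 and -0.14 without the first library of passage 9 or the second of passage 39, and 0.16 without either of the others, which leaves the passages with unequal library numbers. The ratio of the cytosolic to the mitochondrial median (10.5) was 7.80 with the minimum of 5 RPKM, 12.7 with none and 10.9 with Gars and Kars counted as cytosolic.

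The labels do not say that a library number marks a shared batch, and no p-value came from the block. Counting error limits the mitochondrial genes most: Yars2 had 363 reads in the first library of passage 9, and Gars 10745.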

Other observations

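Genes that work beside the synthetases were compared between the numbered libraries by the same rule. Of 11 charging partners with a mean of at least 1 RPKM, 3 were counted as higher and 0 as lower, with a median of 0.28: Gatc (0.45), a subunit of the amidotransferase that completes mitochondrial glutaminyl-tRNA, and Dtd1 and Eef1e1 (both 0.35). Dtd1 removes D-amino acids from tRNA, and Eef1e1 is a further auxiliary protein of the multisynthetase complex. Of 9 elongation factors, which bring charged tRNA to the ribosome and move it along, 6 were counted as higher and 1 as lower, with a median of 0.35. The factors with the largest differences were Eef1d (0.45), Eef1g (0.42) and Eef1b2 (0.41), subunits of the exchange factor for Eef1a1. Gfm2, which recycles mitochondrial ribosomes, was lower by this measure (-0.35). Of all genes, 19.3% were higher and 10.1% lower by the same rule. With the common sum of RPKM 0 of 11 charging partners and 0 of 9 elongation factors were counted as higher, and with the median ratio 1 and 2.

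In GRCr8, 7 of the 39 members overlap another protein-coding gene: Aars, Aimp2, Mars, Mars2, Rars2, Sars2 and Yars. Reads from a shared stretch cannot be assigned to either gene when strand is not used. Members of class I and class II, the structural families of the charging domain, had medians by library number of 0.34 (9 of 16 counted as higher) and 0.24 (6 of 18). Of all genes 19.3% were counted as higher by the same rule. Eprs, which holds a domain of each class, was left out of this split.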
